A study of Mus musculus with 8 samples.

Results

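The genes described here encode 10 core parts of the machinery that brings proteins into mitochondria: Tomm20, Tomm22, Tomm40, Tomm5 and Tomm7 of the TOM complex, Timm17a, Timm23, Timm44 and Timm50 of the TIM23 complex, and the matrix chaperone Hspa9. Their probes were found by matching the RefSeq accession of every non-control probe to these symbols, without using any measured value. This gave 17 of the 55681 probes of the array, for 10 of the 21154 genes that could be named. The study profiled brown adipose tissue (BAT) of male C57BL/6NCrSlc mice that had no genetic modification named in the labels. The mice had thoracic aortic constriction (TAC), a band around the aorta that puts the left ventricle under pressure overload, or a Sham operation at 11 weeks of age. BAT was taken at 13 weeks of age, which is 2 weeks after surgery by the source name and the treatment protocol, while the sample description gives 4 weeks. There were 4 Sham and 4 TAC samples, each on 1 single-colour array, and the comparison asks how expression in BAT differs after pressure overload.

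Nearly all mitochondrial proteins are made in the cytosol and imported. In the outer membrane, the receptors Tomm20 and Tomm22 bind precursor proteins and hand them to the Tomm40 channel, which the small subunits Tomm5 and Tomm7 help to assemble and stabilise. In the inner membrane, Timm50 receives precursors that carry a presequence, Timm23 and Timm17a form the core of the translocase, and Timm44 tethers Hspa9, also known as mortalin, whose ATP hydrolysis draws the chain into the matrix. Brown adipocytes are packed with mitochondria, and their heat-producing protein Ucp1 is itself carried to the inner membrane by import.

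The members lie on separate chromosomes for the most part: Timm17a on 1, Tomm5 on 4, Tomm7 on 5, Tomm40 and Timm50 on 7, Tomm20 and Timm44 on 8, Timm23 on 14, Tomm22 on 15 and Hspa9 on 18. Promoter sequence from RefSeq (mouse build GRCm38.p6) was at hand for 8 of the 10, all but Tomm7 and Hspa9. The 250 bases before each start were searched on both strands for motifs of factors known to act at nuclear genes for mitochondrial proteins. The NRF-1 motif GCGCANGCG was in 1 of the 8 promoters, that of Tomm20, and in 5.16% of 32851 promoters of the same length. The ETS motif CCGGAAG, bound by GABPA, was in 2 of the 8, those of Timm23 and Tomm22, against 6.91% of all promoters. The ERR motif TCAAGGTCA and the YY1 motif AAGATGGCG were in 0 of the 8, against 0.387% and 0.606% of all, and the CCAAT box was in 4 of the 8 (Timm17a, Tomm40, Timm50 and Timm44), against 33.8% of all. The NRF-1 and ETS matches are shown, with the match in capitals, because they are the only matches among the 4 motifs longer than the CCAAT box, and none of these motifs was in most of the 8 promoters. The Tomm20 stretch is chr8:126945922-126945965 on the minus strand and holds the NRF-1 match. The Timm23 stretch is chr14:32201907-32201963 on the minus strand, and the Tomm22 stretch is chr15:79670796-79670855 on the plus strand. Both hold the ETS motif, and in Tomm22 matches on both strands overlap. All of them lie upstream of the start, outside the transcript. A match describes these letters and does not show that a factor binds there.
Tomm20: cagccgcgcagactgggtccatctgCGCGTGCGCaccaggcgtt
Timm23: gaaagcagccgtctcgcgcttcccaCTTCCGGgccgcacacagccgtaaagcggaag
Tomm22: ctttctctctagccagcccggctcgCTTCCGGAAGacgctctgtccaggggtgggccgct

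Scanner intensities were at hand for 7 arrays, Sham-2 to Sham-4 and TAC-1 to TAC-4, while Sham-1 was present in the table of normalised values alone. Levels below are log2 intensities relative to the 75th percentile of the array, so that 0 is the 75th percentile and a difference of 1 is a doubling. That percentile was 604.1, 453.6 and 537.3 intensity units in Sham-2 to Sham-4 and 604.5, 499.1, 548.0 and 494.9 in TAC-1 to TAC-4. Between 54.5% and 64.3% of spots were well above background on each array. The tissue label was met by its defining markers: Ucp1 read 9.40, 9.70 and 9.53 in the Sham arrays and 8.37, 9.22, 9.17 and 8.97 in the TAC arrays, and Cidea read between 10.08 and 10.67 in all 7. All Ucp1 values of TAC lay below those of Sham, and TAC-1 was lowest. TAC-1 also stood apart from the other TAC arrays across the members and several marker lists, so values without it are given beside those of the genes and lists. All 7 arrays came from 1 slide with Sham in its first row and TAC in its second, and row and surgery cannot be told apart.

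Of the 10 import genes, 8 were lower and 2 were higher in TAC, and none passed the test. A gene is represented by its brightest probe. The median log2 difference of the 10 genes was −0.14, against −0.03 over all 33378 probes tested, of which 55.9% were lower. The limma adjusted p of the 10 genes ran from 0.368 to 0.879. Across the array, 0% of probes passed an adjusted p of 0.05, with a lowest value of 0.0576, and the methods' t-test also called 0 probes after adjustment (2589 lower and 1602 higher before it). At an unadjusted p under 0.05, limma called 8.44% of all probes lower (2817) and 4.38% higher (1462). Of the import genes this took in 1 lower, Timm23, and 0 higher. In 2 of the 10 genes, Timm23 and Hspa9, every scanned TAC array lay below every scanned Sham array, as did 10.4% of all probes tested. In these whole-tissue samples, fewer cells of a type and less RNA per cell cannot be told apart. Single arrays moved the counts over all probes: without Sham-3 the unadjusted counts were 1499 lower and 902 higher, and without TAC-4 an adjusted p of 0.05 was passed by 1 probe lower and 6 higher.

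**Figure D1:**
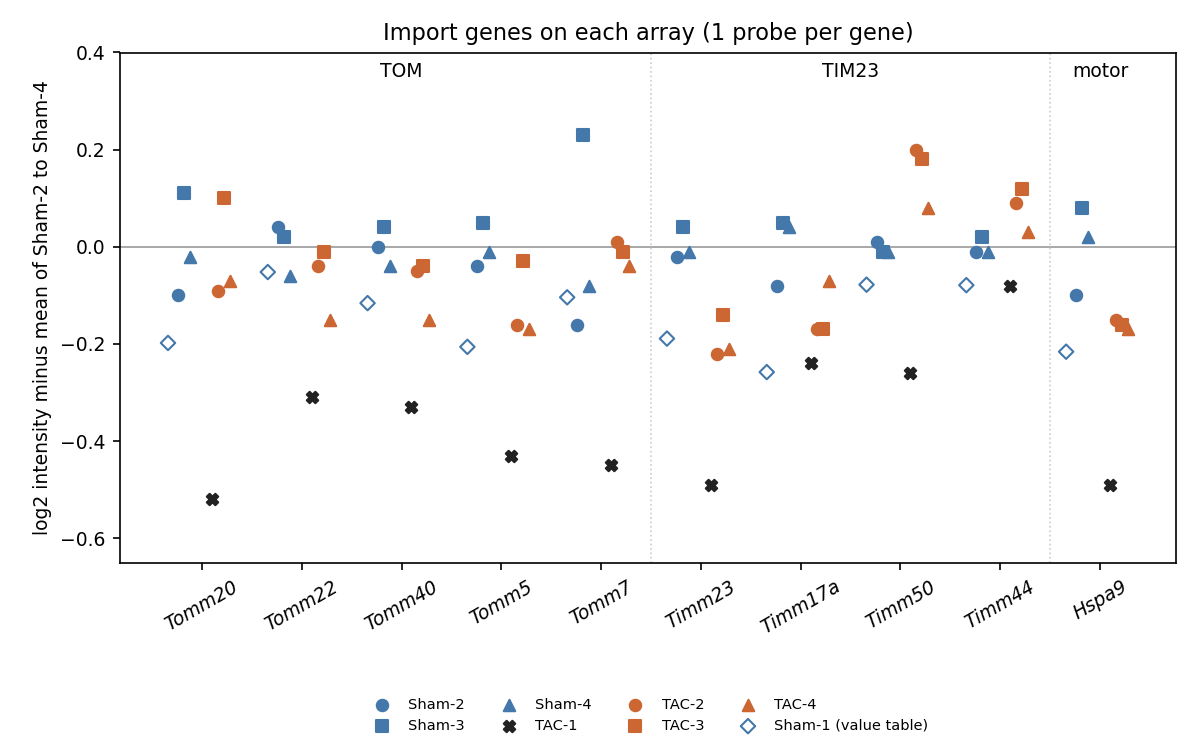
Log2 intensity of each import gene (1 probe per gene) minus the mean of Sham-2 to Sham-4, 1 point per array, with Sham-1 drawn from the table of normalised values and the other arrays from scanner values. TAC-1 (black crosses) is the lowest of the 7 scanned arrays for all 10 genes, and Timm23 and Hspa9 have every scanned TAC array below Sham-2 to Sham-4 while Sham-1 lies among or below TAC-2 to TAC-4.

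Among the receptors of the TOM complex, Tomm20 read 4.57, 4.78 and 4.65 in Sham and 4.15, 4.58, 4.77 and 4.60 in TAC. TAC-1 alone was low, and the other TAC arrays covered the same range as Sham. The log2 difference was −0.15 ± 0.154 (SE, 4 TAC and 3 Sham arrays, adjusted p = 0.704), and −0.02 ± 0.096 without TAC-1. Other single arrays moved it too, to −0.089 without Sham-3 and −0.227 without TAC-3. Its other probe, at 3.74 to 3.83 in Sham and 3.39 to 3.87 in TAC, differed by −0.11 (−0.01 without TAC-1). Tomm22, the central receptor that also links the channel units, read 4.47, 4.44 and 4.37 in Sham and 4.12, 4.39, 4.42 and 4.28 in TAC. TAC-1 and TAC-4 were below all Sham arrays and the others were within their range. The difference was −0.13 ± 0.098 (adjusted p = 0.609), and −0.07 ± 0.078 without TAC-1.

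The channel gene Tomm40 read 4.95, 4.99 and 4.90 in Sham and 4.62, 4.90, 4.91 and 4.80 in TAC. The groups overlapped narrowly, with TAC-2 and TAC-3 at the level of the lowest Sham array. The difference was −0.14 ± 0.098 (adjusted p = 0.559), and −0.08 ± 0.075 without TAC-1. A dimmer probe of Tomm40 differed by −0.13 ± 0.090 (−0.10 without TAC-1). Tomm5, a small subunit, read 6.34, 6.43 and 6.38 in Sham and 5.95, 6.23, 6.36 and 6.21 in TAC. Only TAC-3 reached the Sham range, and the difference of −0.20 ± 0.110 (adjusted p = 0.489) became −0.12 ± 0.078 without TAC-1. This was the largest difference among the 5 TOM genes, and the other probe of Tomm5 gave −0.18 ± 0.107 (−0.11 without TAC-1).

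Tomm7, which steadies the complex, read 6.75, 7.14 and 6.83 in Sham and 6.46, 6.92, 6.90 and 6.86 in TAC. Here Sham-3 stood high and TAC-1 low, with the remaining arrays between them. The difference was −0.12 ± 0.153 (adjusted p = 0.755), and −0.01 ± 0.118 without TAC-1. It depended as much on the Sham arrays, at −0.005 without Sham-3 and −0.201 without Sham-2. The second Tomm7 probe was not well above background on any array and was the 1 member probe of 17 that was not tested.

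In the TIM23 complex, the channel-forming subunit Timm23 read 6.48, 6.54 and 6.49 in Sham and 6.01, 6.28, 6.36 and 6.29 in TAC. All scanned TAC arrays were below Sham-2 to Sham-4. The difference was −0.26 ± 0.105 (95% confidence interval −0.51 to −0.02, unadjusted p = 0.0392, limma adjusted p = 0.368), a TAC to Sham ratio of 0.832. Without TAC-1 it was −0.19 ± 0.071 (adjusted p = 0.348). The second Timm23 probe read 4.76, 4.93 and 4.76 in Sham and 4.27, 4.66, 4.68 and 4.66 in TAC, again with no overlap, and differed by −0.25 ± 0.127 (adjusted p = 0.461), and by −0.15 ± 0.081 without TAC-1.

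Timm17a, the partner of Timm23 in the translocase core, read 6.49, 6.62 and 6.61 in Sham and 6.33, 6.40, 6.40 and 6.50 in TAC. TAC-4 overlapped the lowest Sham array, and TAC-1 was less far from the rest than in the other genes. The difference was −0.16 ± 0.083 (adjusted p = 0.455), and −0.14 ± 0.079 without TAC-1. Its other probe read 5.66, 5.79 and 5.72 in Sham and 5.43, 5.53, 5.56 and 5.58 in TAC, with no overlap, and had a difference of −0.20 ± 0.082 (unadjusted p = 0.0477, adjusted p = 0.384), and −0.16 ± 0.074 without TAC-1. Counted over the 16 tested probes of the 10 genes, 14 were lower, against 55.9% of all probes. An unadjusted p under 0.05 was reached by 2, both lower, against 8.44% of all, and 4 had every TAC array below every Sham array, against 10.4% of all. Without TAC-1 these counts were 14, 1 and 4 (53.2%, 8.55% and 12.7% of all probes). In the 8-array table of normalised values they were 13, 1 and 0 (57.7%, 9.57% and 6.29% of all probes).

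The presequence receptor Timm50 and the motor tether Timm44 were the 2 genes not lower in TAC. Timm50 read 4.02, 4.00 and 4.00 in Sham and 3.75, 4.21, 4.19 and 4.09 in TAC. TAC-1 was below all Sham arrays and the other 3 TAC arrays were above them. The difference was 0.05 ± 0.127 (adjusted p = 0.879) with all arrays and 0.16 ± 0.073 (adjusted p = 0.423) without TAC-1, but 0.003 without TAC-2 and 0.009 without TAC-3. The other Timm50 probe read 3.16, 3.25 and 3.01 in Sham and 2.93, 3.10, 3.13 and 3.20 in TAC, with overlap. Its difference was −0.06 ± 0.103 in the scanner values (−0.001 without TAC-1), and 0.003 in the 8-array table (0.05 without TAC-1). With the mean of both probes the Timm50 difference in the scanner values was −0.001, so its direction there depends on the probe.

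Timm44 read 5.23, 5.25 and 5.22 in Sham and 5.15, 5.32, 5.35 and 5.26 in TAC. It had the same order as Timm50, with TAC-1 below and TAC-2 to TAC-4 above all Sham arrays, within a narrow range. The difference was 0.04 ± 0.082 (adjusted p = 0.857), and 0.08 ± 0.070 (adjusted p = 0.656) without TAC-1, but 0.023 without TAC-2 and 0.013 without TAC-3. Hspa9, the chaperone of the import motor, read 6.41, 6.58 and 6.53 in Sham and 6.01, 6.36, 6.35 and 6.33 in TAC. The scanned TAC arrays all lay below Sham-2 to Sham-4, with TAC-2 to TAC-4 close to each other and TAC-1 well under them. The difference was −0.24 ± 0.113 (95% confidence interval −0.51 to 0.03, adjusted p = 0.429), and −0.16 ± 0.078 (adjusted p = 0.444) without TAC-1.

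**Figure D2:**
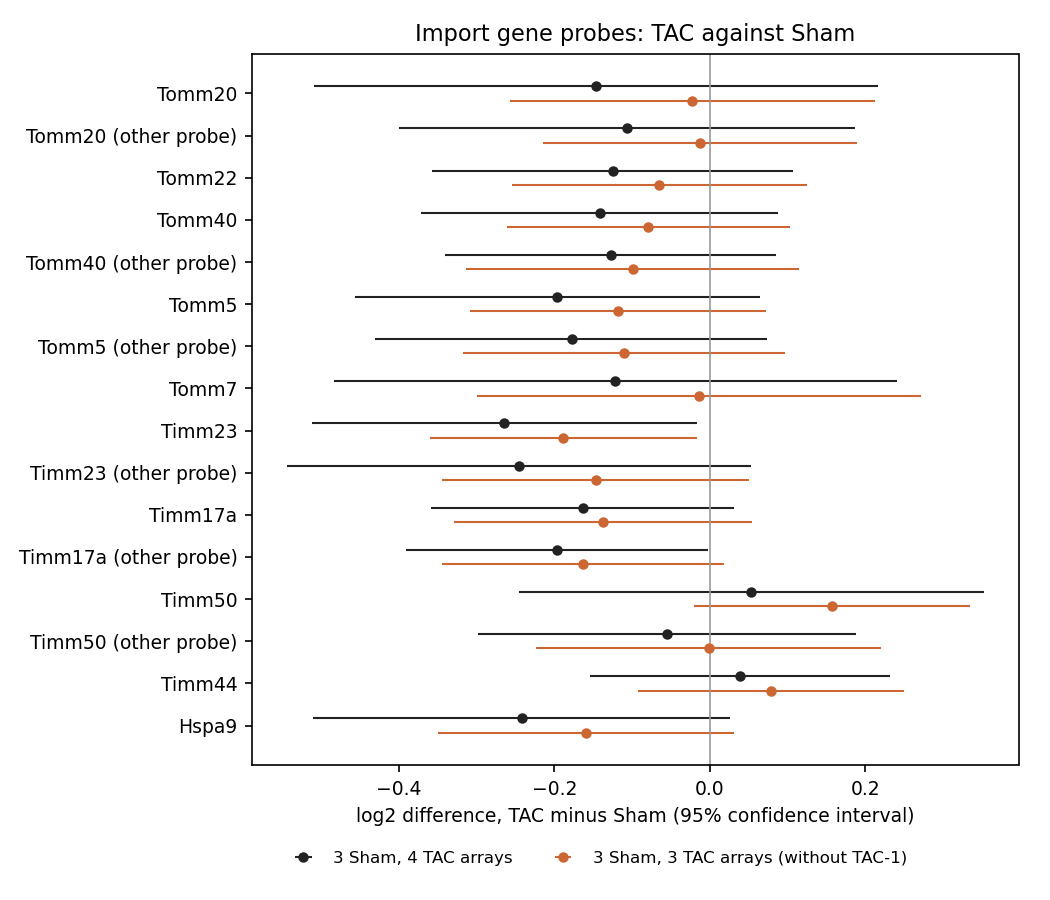
Log2 difference between TAC and Sham with its 95% confidence interval from limma for the 16 tested probes of the import genes, with all 7 scanned arrays (black) and without TAC-1 (orange). Most intervals include 0, and leaving out TAC-1 moves every probe upward, with Tomm20 and Tomm7 coming to −0.02 and −0.01.

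TAC-1 was the lowest of the 7 arrays for all 10 genes and for all 16 tested probes, as it was for 36% of all probes tested. Its log2 difference from the mean of TAC-2 to TAC-4 ran from −0.50 (Tomm20) to −0.10 (Timm17a), with a median of −0.31 over the 10 genes against −0.09 over all probes. Averaged over the 10 genes and taken relative to the Sham mean, the arrays stood at −0.36 in TAC-1, −0.06 in TAC-2, −0.02 in TAC-3 and −0.09 in TAC-4, with Sham-2 to Sham-4 at −0.04, 0.06 and −0.02. By this measure TAC-3 was beside Sham-4, and TAC-2 was beside Sham-2.

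Without TAC-1, 8 of the 10 genes were still lower, with a median of −0.07 against −0.02 over all 32814 probes tested, of which 53.2% were lower. No member passed an adjusted p of 0.05, nor did any probe of the array (0%, lowest adjusted p 0.122). The unadjusted p was under 0.05 for 1 gene lower and 0 higher, against 8.55% and 4.72% of all probes. In the scanner values Timm23 and Hspa9 were the 2 genes with every TAC array below every Sham array, as were 12.7% of all probes. Leaving out an array cannot make separated groups overlap. Timm44 and Timm50 were 2 genes with every TAC array above every Sham array, as were 8.55% of all probes. Quantile normalisation of all 7 arrays, in place of the percentile, gave a median of −0.06 for the 10 genes, and limma with array weights gave −0.09, both with 8 of 10 lower.

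The table of normalised values adds Sham-1 and changed the picture of separation. Relative to the mean of Sham-2 to Sham-4 in the same table, Sham-1 was at −0.15 over the 10 genes, while TAC-1 to TAC-4 were at −0.37, −0.07, −0.03 and −0.11. The control array Sham-1 was thus lower than 3 of the 4 TAC arrays. It lay below the range of the other Sham arrays for 8 of the 10 genes, all but Tomm22 and Tomm7. For Timm23 it read 6.51 beside 6.68, 6.73 and 6.68 in the other Sham arrays and 6.20, 6.46, 6.54 and 6.47 in TAC, so that the groups now overlapped. Hspa9 in Sham-1 read 6.48, below TAC-2 to TAC-4 at 6.53, 6.53 and 6.50. With 4 Sham and 4 TAC arrays in this table, 0 of the 10 genes had every TAC array below every Sham array, against 6.29% of all probes. The count of genes lower was again 8, the median was −0.12, and Timm23 differed by −0.23 ± 0.098 (adjusted p = 0.341). With Sham-1 in and TAC-1 out, 7 genes were lower, 0 had an unadjusted p under 0.05 and Tomm20 differed by 0.009. Of all 33378 probes tested in that setting, 2884 were lower and 1524 higher at an unadjusted p under 0.05. Timm23 then differed by −0.16 ± 0.080 (unadjusted p = 0.0861, limma adjusted p = 0.446). In the same setting 1 gene, Timm50, had every TAC array above every Sham array while Timm44 overlapped. The share of all probes with such a separation was not counted there, so this 1 gene cannot be set against it.

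The rest of the import pathway was described through 5 further lists, which hold 35 genes. In the scanner values 33 of them were lower in TAC, 11 had an unadjusted p under 0.05 and 17 had every TAC array below every Sham array, while 0 passed an adjusted p of 0.05. Over all probes the shares were 55.9%, 8.44% and 10.4%. Without TAC-1 these counts were 32, 8 and 18 (53.2%, 8.55% and 12.7% of all probes), and in the 8-array table they were 34, 7 and 4 (57.7%, 9.57% and 6.29%). The 8-array table differs from the scanner values in the source of the values as well as in holding Sham-1. These shares of all probes also apply to the counts of lower genes in each list below. Of the 4 other TOM genes, 2 were lower and 2 higher, with a median of −0.07 (−0.01 without TAC-1, −0.04 without Sham-3 and −0.099 without TAC-2) and 0 at an unadjusted p under 0.05. The receptor Tomm70a, which takes up carrier precursors, differed by 0.09, Tomm6 by −0.15 and the Tomm40 homologue Tomm40l by −0.29. Without TAC-1 these differences were 0.13, −0.08 and −0.20, and without TAC-3 that of Tomm70a was 0.053.

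All 9 other genes of the TIM23 complex and its motor were lower (55.9% of all probes), with a median of −0.18. Of these, 1 had an unadjusted p under 0.05, near the 8.44% of all probes, and 5 had no overlap (10.4% of all). Without TAC-1, 8 of 9 were lower, with a median of −0.12, 0 at an unadjusted p under 0.05 and 5 without overlap. Over all probes these shares were 53.2%, 8.55% and 12.7%. In the 8-array table, 9 of 9 were lower, with a median of −0.16, 0 at an unadjusted p under 0.05 and 0 without overlap. There the shares over all probes were 57.7%, 9.57% and 6.29%. Grpel1, the nucleotide exchange factor of Hspa9, read 6.78, 6.84 and 6.83 in Sham and 6.29, 6.62, 6.69 and 6.63 in TAC, a difference of −0.26 ± 0.114 (adjusted p = 0.405). Dnajc19, a J-domain protein of the motor, differed by −0.21 ± 0.089 (adjusted p = 0.384), and Timm17b, the second Timm17 isoform, by −0.16 ± 0.086. Without TAC-1 the 3 differed by −0.17, −0.20 and −0.12, and with the mean of its probes Dnajc19 differed by −0.101. In all 3 the TAC arrays lay below Sham-2 to Sham-4, with overlap once Sham-1 was included.

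The small TIM chaperones and the TIM22 translocase, the route of carrier proteins into the inner membrane, had 9 of 9 genes lower (55.9% of all probes). Their median was −0.27 (−0.17 without TAC-1), with 3 at an unadjusted p under 0.05 and 5 without overlap (8.44% and 10.4% of all probes). In the 8-array table these counts were 3 and 3 (9.57% and 6.29% of all probes), with a median of −0.24. Timm22, the channel of that translocase, read 3.36, 3.40 and 3.34 in Sham and 2.72, 2.99, 3.04 and 2.95 in TAC. Every TAC array was lower by more than the whole Sham range, and the difference was −0.44 ± 0.099 (unadjusted p = 0.00284, adjusted p = 0.199). Without TAC-1 it was −0.38 ± 0.071 (adjusted p = 0.177), and in the 8-array table −0.39 ± 0.106 (adjusted p = 0.230), still with no overlap. Timm10 and Timm29 differed by −0.29 ± 0.101 and −0.22 ± 0.086 (−0.24 and −0.18 without TAC-1), and neither overlapped in the 8-array table.

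The SAM complex, which inserts barrel proteins into the outer membrane, and the MIA pathway of the intermembrane space had 6 of 6 genes lower (55.9% of all probes). Their median was −0.18 (−0.20 without TAC-1), with 3 at an unadjusted p under 0.05 and 3 without overlap (8.44% and 10.4% of all probes). These counts were 1 and 1 in the 8-array table (9.57% and 6.29% of all probes), with a median of −0.19. The oxidoreductase Chchd4 differed by −0.32 ± 0.101, metaxin Mtx2 by −0.33 ± 0.107 and the barrel assembly factor Samm50 by −0.19 ± 0.077 (adjusted p from 0.306 to 0.374), and without TAC-1 by −0.26, −0.26 and −0.16. Presequence processing and inner membrane insertion had 7 of 7 lower (55.9% of all probes) and a median of −0.26 (−0.21 without TAC-1). Of these genes, 4 had an unadjusted p under 0.05 and 4 had no overlap (8.44% and 10.4% of all probes). With 8 arrays from the table these counts were 3 and 0 (9.57% and 6.29% of all probes), with a median of −0.24. Pmpcb, the catalytic subunit of the processing peptidase, read 5.71, 5.75 and 5.63 in Sham and 5.07, 5.40, 5.35 and 5.41 in TAC. Its difference was −0.39 ± 0.108 (adjusted p = 0.267), beside −0.30 ± 0.093 for its partner Pmpca and −0.39 ± 0.095 for Immp2l of the inner membrane peptidase. Without TAC-1 the 3 differed by −0.31, −0.24 and −0.36. In this list Sham-1 stood at −0.28 in the table, below TAC-2 to TAC-4 at −0.23, −0.24 and −0.22.

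**Figure D3:**
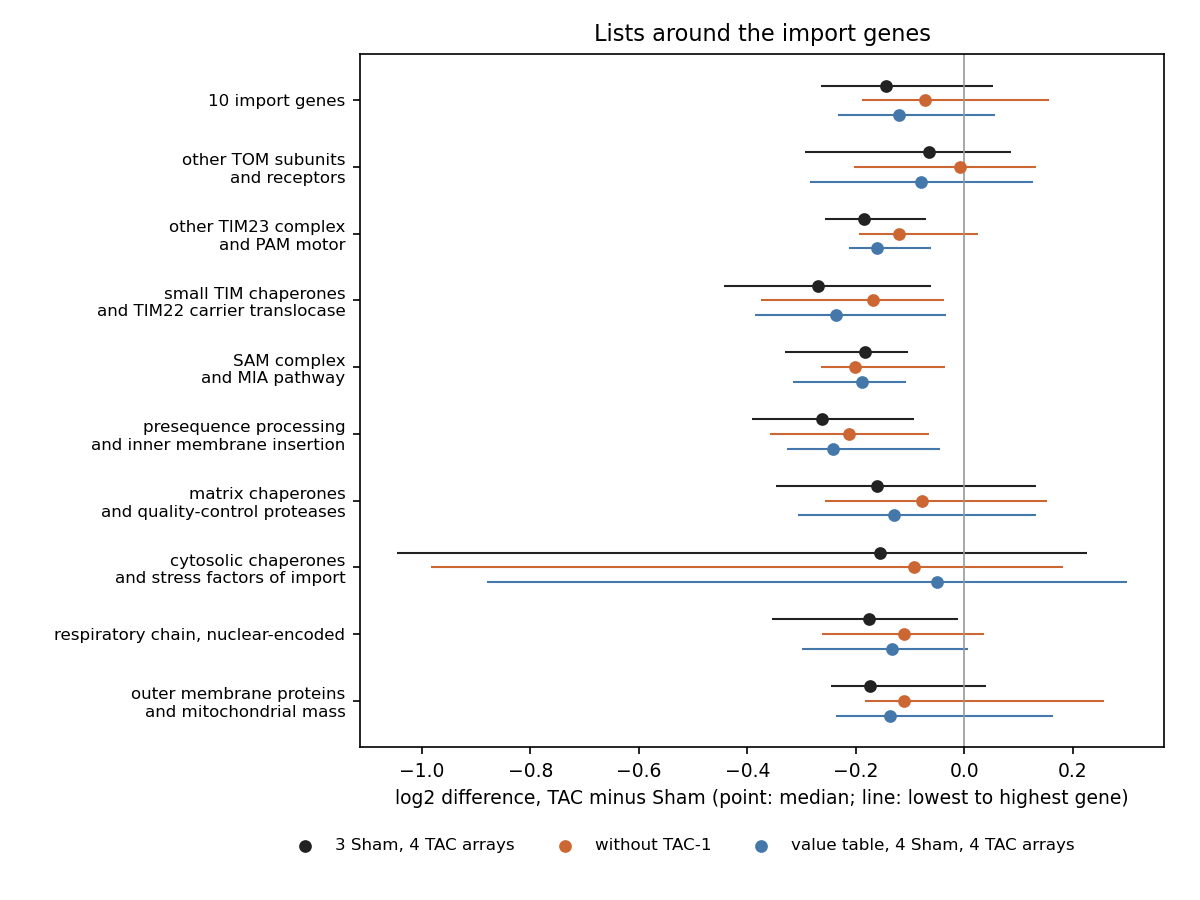
Median log2 difference between TAC and Sham (points) and the lowest to highest gene (lines) for the 10 import genes and the 9 lists around them, with all scanned arrays (black), without TAC-1 (orange) and in the 8-array table (blue). The medians are below 0 in each list under the 3 settings, and with all scanned arrays those of presequence processing and of the small TIM and TIM22 genes are lowest.

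Downstream of import, 9 of 10 matrix chaperones and quality-control proteases were lower, with a median of −0.16 (−0.08 without TAC-1) and 2 at an unadjusted p under 0.05, against 55.9% and 8.44% of all probes. Without TAC-1, 8 were lower and 1 had an unadjusted p under 0.05, against 53.2% and 8.55% of all probes. In the 8-array table, 8 were lower, with a median of −0.13 and 1 at an unadjusted p under 0.05 (57.7% and 9.57% of all probes). The proteases Lonp1, Spg7 and Htra2 differed by −0.35, −0.31 and −0.22 (adjusted p from 0.354 to 0.422), and by −0.25, −0.26 and −0.17 without TAC-1. Without Sham-3, Spg7 differed by −0.176. Among cytosolic chaperones and stress factors, 6 of 9 were lower, with a median of −0.16 (−0.09 without TAC-1 and also without Sham-3) and 1 lower at an unadjusted p under 0.05, shares near those of all probes (55.9% and 8.44%). In the 8-array table, 6 were lower (57.7% of all probes) and the median was −0.05. There 1 gene lower (9.57% of all probes) and 1 higher had an unadjusted p under 0.05. Atf5, a transcription factor of the mitochondrial stress response, read 6.48, 7.28 and 7.40 in Sham and 5.82, 6.25, 5.89 and 6.07 in TAC. It was low in every TAC array, and Sham-2 stood between the groups. The difference was −1.05 ± 0.235 (adjusted p = 0.199), −0.98 ± 0.256 without TAC-1 and −0.88 ± 0.253 in the 8-array table, with no overlap in any of them. Ddit3, also a stress-induced factor, differed by 0.23 ± 0.108, and the chaperone Dnaja2 by −0.16 ± 0.097 (0.18 and −0.09 without TAC-1).

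All 28 nuclear-encoded respiratory chain genes, whose products depend on import, were lower in TAC, against 55.9% of all probes. Their median was −0.18, with 5 at an unadjusted p under 0.05 (8.44% of all probes) and 9 without overlap (10.4% of all). Without TAC-1, 23 of the 28 were lower, the median was −0.11, 4 had an unadjusted p under 0.05 and 9 had no overlap. Over all probes these shares were 53.2%, 8.55% and 12.7%. In the 8-array table, 27 were lower (57.7% of all probes), with a median of −0.13. There 2 had an unadjusted p under 0.05 (9.57% of all probes) and 1 had no overlap (6.29% of all). Sham-1 stood at −0.23 there, below TAC-2 to TAC-4 at −0.09, −0.18 and −0.13. With quantile normalisation of the 7 scanned arrays 20 of the 28 were lower, the fewest under any alternative, and the median of the list was −0.052. Sdhd, Cycs and Uqcrc2 differed by −0.27 ± 0.093, −0.29 ± 0.104 and −0.27 ± 0.098 (adjusted p from 0.327 to 0.345), and by −0.22, −0.26 and −0.23 without TAC-1. The size for Cycs depended on the probe, with a difference of −0.678 for the mean of its probes. Of 12 genes for outer membrane proteins and mitochondrial mass, 11 were lower, against 55.9% of all probes. Their median was −0.17 (−0.11 without TAC-1), and 1 had an unadjusted p under 0.05, near the 8.44% of all probes. Without TAC-1, 10 of these 12 genes were lower and 0 had an unadjusted p under 0.05 (53.2% and 8.55% of all probes). The 8-array table also had 11 lower, with a median of −0.14 and 2 at an unadjusted p under 0.05 (57.7% and 9.57% of all probes). Vdac3 and Vdac1, pores of the outer membrane, differed by −0.19 ± 0.082 and −0.25 ± 0.113, and the nuclear receptor Esrra by −0.23 ± 0.117. Without TAC-1 these differences were −0.18, −0.17 and −0.15.

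**Figure D4:**
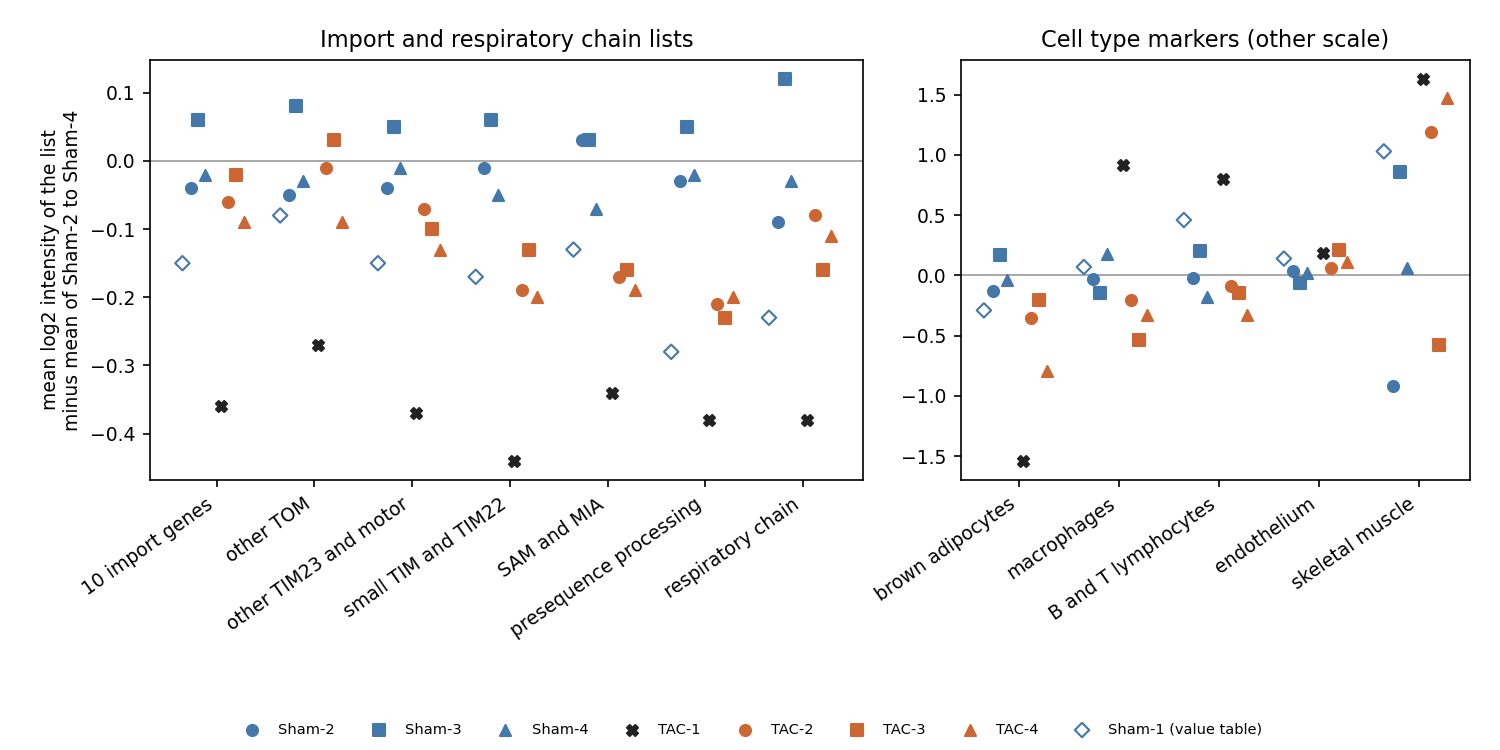
Mean log2 intensity of each list on each array minus the mean of Sham-2 to Sham-4, for import and respiratory chain lists (left) and cell type markers (right, on another scale), with Sham-1 from the table of normalised values. TAC-1 is lowest in every list on the left and in brown adipocyte markers (−1.54) and highest in macrophage markers (0.92).

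Markers of cell types also set TAC-1 apart. All 8 brown adipocyte markers were lower in TAC (median −0.41, and −0.32 without TAC-1), with 2 at an unadjusted p under 0.05, against 55.9% and 8.44% of all probes. Relative to Sham, their mean was −1.54 in TAC-1, −0.35 in TAC-2, −0.20 in TAC-3 and −0.79 in TAC-4. The median of the 8 markers was −0.84, −0.37, −0.21 and −0.42 in the same arrays, nearer to Sham in TAC-1 and TAC-4 than the mean. The summed intensity of their probes was 2060, 2550 and 2190 times the 75th percentile in Sham and 1460, 2150, 1980 and 2000 in TAC. Such a sum is weighted by how brightly each probe reads and does not measure which transcript was most abundant, and the probe of Cidea gave 67.1% of it. Ucp1 differed by −0.61 ± 0.215 (adjusted p = 0.336), and by −0.42 ± 0.115 without TAC-1. TAC-1 was the lowest array by each of these measures.

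Macrophage markers had 3 of 8 lower, against 55.9% of all probes, with a median of 0.03 and 0 at an unadjusted p under 0.05. Their summed intensity was 40.6, 42.2 and 42.0 in Sham and 74.8, 40.2, 33.9 and 38.5 in TAC, highest in TAC-1. The brightest probe, that of Itgam, gave 51.3% of the sum, and the defining markers Adgre1 and Cd68 read 0.76 and 2.54 in TAC-1, against at most −0.34 and 1.17 in the other arrays. Without TAC-1, 7 of 8 were lower, with a median of −0.40 and 5 lower at an unadjusted p under 0.05, against 53.2% and 8.55% of all probes. With 8 arrays from the table, 6 of 8 were lower, with a median of −0.08 and 0 at an unadjusted p under 0.05. Of 8 B and T lymphocyte markers 5 were tested and 1 was lower (median 0.04). The direction turned with the arrays used, with 3 of 5 lower without TAC-1 (median −0.30) and 5 of 5 lower in the 8-array table (median −0.05). Their mean was 0.80 in TAC-1 and between −0.33 and −0.09 in the other TAC arrays, and 0.46 in Sham-1 in the table. Their summed intensity was 8.84, 9 and 8.56 in Sham and 9.13, 9.19, 8.59 and 8.46 in TAC, with the probe of Cd4 at 71.2% of it. The part of these markers in the low import genes of TAC-1 was not tested.

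Skeletal muscle markers varied within both groups. Their summed intensity was 44.0, 159 and 80.2 in Sham and 255, 203, 55.8 and 259 in TAC, with the probe of Myh4 at 30.4% of it, and 0 of 10 were lower (median 1.02, none at an unadjusted p under 0.05). Without TAC-1, 1 of 10 was lower (median 0.79), and in the 8-array table, 0 of 10 (median 0.75). Relative to Sham, the mean of the muscle markers was 1.63, 1.19, −0.58 and 1.47 in TAC-1 to TAC-4, beside import gene means of −0.36, −0.06, −0.02 and −0.09. Among the TAC arrays, a higher muscle mean thus went with a lower import gene mean. In Sham-2 to Sham-4 the muscle means were −0.92, 0.86 and 0.06 beside import gene means of −0.04, 0.06 and −0.02, which ran the other way, and Sham-1 in the table had 1.03 beside −0.15.

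Endothelial markers were higher for 5 of 6 genes with a median of 0.08 and 2 higher at an unadjusted p under 0.05 (4.38% of all probes), and the probe of Kdr gave 58.4% of their summed intensity. Without TAC-1, 5 of 6 were higher (median 0.05), and in the 8-array table, 4 of 6 (median 0.04). White adipocyte markers had 2 of 5 tested genes lower (median 0.07), with the probe of Retn at 92.4% of the sum and Hoxc9 not well above background on any array. Without TAC-1, 2 of 5 were lower (median 0.16), while in the 8-array table, 3 of 5 were lower and the median turned to −0.09. Erythroid markers had 2 of 3 tested genes lower (median −0.06), with the probe of Hba-a1 at 91.1% of the sum. Without TAC-1, 3 of 3 were lower (median −0.14), while in the 8-array table, 0 of 3 were lower and the median turned to 0.15. What these differences contribute to the import genes was not tested.

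The members' mean profile over the 7 arrays was set against 14991 other genes. The closest were Slc52a2, a riboflavin transporter (r = 0.997), Trp53rkb, a kinase of the Trp53rk family (0.996), Rer1, a retrieval receptor of the Golgi (0.996), Atp5c1, the gamma subunit of ATP synthase (0.996), and Hp, haptoglobin (0.994). These correlations describe 7 arrays that share 1 slide, and in TAC-1 the 5 genes stood between −0.92 and −0.55 relative to Sham. Over the 6 arrays without TAC-1 the correlations were 0.984, 0.972, 0.967, 0.966 and 0.991. None of these 5 genes passed the test, and their differences ran from −0.35 for Hp to −0.19 for Slc52a2, and from −0.15 to −0.07 without TAC-1.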

How the data were processed

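Total RNA of BAT was labelled with Cy3 and hybridised to Agilent arrays by the authors, who extracted spot intensity with Agilent Feature Extraction 10.7.1.1. Background had been subtracted from the deposited scanner intensity, with no scaling from array to array. The deposited table holds a ratio, each intensity divided by a constant of its array near the 75th percentile: 99.8% to 99.9% of probes over 100 units lay within 1% of a constant multiple, and its column medians ran from 0.091 to 0.098. Its further treatment is not given in the sources used here. Processed intensities were put on the log2 scale, reduced by the array's 75th percentile and averaged per probe, leaving out control spots and 134 to 191 spots per array marked as outliers. Probes well above background on at least 3 of 7 arrays and measured on at least 2 arrays per group were fitted by limma (version 3.58.1, run under R 4.3.3), and p-values were adjusted over all 33378 of them by the Benjamini-Hochberg method. The scripts were first tested on simulated data with changes larger than those of the members and a spread taken without TAC-1. That test does not cover differences as small as those reported here. Accessions named 28026 of 55681 probes (50.3%). Values after ± are standard errors. Groups came from the sample titles. The p-values set a group difference against the spread between samples within groups, and they cannot separate surgery from slide row. The number of arrays limits precision.

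Members and lists were chosen with earlier results of these data known, so no test is given for a list. Named genes were the 10 members with every probe, the 3 genes with the smallest unadjusted p in each of 9 pathway lists, the 5 genes with the highest Pearson correlation to the members' mean profile, and in each of 7 cell type lists the gene with the brightest probe and the first 2 genes. Alternatives changed the background correction (normexp with offset 50 on spot and background medians), scaling, dim-probe filter, variance model, test, probe choice, source of values, replicate block and single arrays.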

Additional observations from a re-analysis of the deposited data

Results flagged for a closer look

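Of 66 sets of 4 values looked at, each for 1 probe or list in 1 group, 7 had a value far from the other 3 by Dixon's ratio (the gap to the nearest value divided by the whole range, against its 95% critical value), where chance gives about 1 in 20. In all 7 the far value was the low one of TAC-1. Tomm7 read 6.46 in TAC-1 and 6.86 to 6.92 in the other TAC arrays (ratio 0.879). The second Timm23 probe read 4.27 against 4.66 to 4.68 (0.944), and Hspa9 read 6.01 against 6.33 to 6.36 (0.928).

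The other 4 were list means relative to Sham. SAM complex and MIA genes stood at −0.34 in TAC-1 against −0.19 to −0.16 in the other TAC arrays (0.846). Presequence processing genes stood at −0.38 against −0.23 to −0.20 (0.841). Matrix chaperones and proteases stood at −0.32 against −0.10 to −0.07 (0.891), and outer membrane and mitochondrial mass genes at −0.32 against −0.09 to −0.07 (0.916). These sets share arrays and genes of 1 compartment and are not independent of each other.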

How the results depend on the processing

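Under 22 alternatives, 218 of 220 values of the 10 genes kept their direction and none passed an adjusted p of 0.05. Tomm20 turned to 0.009 in the value table with 4 Sham arrays and without TAC-1 (adjusted p 0.978, range over its alternatives 0.554 to 0.978), and Timm50 to −0.001 with the mean of its probes (0.998, range 0.397 to 0.998). The causes were not tested. All 594 values of the 27 other pathway genes kept direction and side of the threshold, though sizes moved: with the mean of its probes Cycs went from −0.293 to −0.678 and Dnajc19 from −0.213 to −0.101. The median of the 10 genes ran from −0.198 to −0.059, and the number lower from 7 to 9. In the table without TAC-1 the list medians moved to −0.119 for small TIM and TIM22 genes, −0.162 for presequence processing and −0.049 for matrix chaperones and proteases. No scaling moved the all-probe median by over 0.1.

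Over all probes, normexp and array weights each gave 1 probe lower past an adjusted p of 0.05. Leaving out 1 array gave 0 to 1 lower and 0 to 6 higher past it, and 1499 to 2981 lower and 902 to 1548 higher at an unadjusted p under 0.05. Whether the replicate numbers pair the arrays was not settled. For numbers 2, 3 and 4 the deviations correlated at 0.00164, −0.0255 and −0.0208 in scanner values, and at 0.0203, 0.0568 and 0.0195 in the table. For number 1 the correlation was higher, at 0.269, and could be taken from the table alone because Sham-1 had no scanner file. Low correlations over all probes cannot exclude that mice were matched by number. With the replicate block, Timm23 differed by −0.188 in scanner values and −0.232 in the table, the members' medians were −0.072 and −0.121, and 0 probes passed an adjusted p of 0.05.

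Signal limited little here, since each tested member was well above background on all 7 arrays. Limits are the 3 or 4 arrays per group, the missing scanner file of Sham-1, the weight of TAC-1, and the slide rows that match the groups.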

Other observations

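Ratios between members on the same array do not depend on the scaling between arrays, and some separated the groups. The pairs were chosen after the values were seen, so these are descriptions without a test. Relative to its Sham mean, the log2 ratio of Timm50 to Timm23 was 0.03, −0.04 and 0.01 in Sham-2 to Sham-4 and 0.24, 0.42, 0.33 and 0.29 in TAC-1 to TAC-4, with Sham-1 at 0.11 in the value table. TAC-1, which was low for both genes, thus lay with the other TAC arrays in their ratio. The ratio of Timm44 to Timm23 was 0.41, 0.30, 0.26 and 0.24 in TAC, with Sham between −0.02 and 0.02 and Sham-1 at 0.11. Timm44 to Hspa9 likewise had TAC at 0.41, 0.24, 0.27 and 0.20, above Sham at −0.06 to 0.09 and Sham-1 at 0.14. Timm50 to Hspa9 had TAC at 0.23, 0.35, 0.34 and 0.26, above Sham at −0.08 to 0.11 and Sham-1 at 0.14. In each of these the presequence receptor or motor tether was higher, relative to the channel or chaperone gene, in every TAC array than in any Sham array, the control Sham-1 included. These pairs set Timm50 and Timm44, the genes not lower in TAC, against Timm23 and Hspa9, whose scanned groups did not overlap. The separation is thus in large part set by the choice of pairs. How often other gene pairs separate was not counted.

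The other pairs looked at did not separate. Timm44 to Timm50 was −0.02, 0.02 and −0.01 in Sham and 0.18, −0.11, −0.07 and −0.05 in TAC. Timm17a to Timm23 was −0.06, 0.01 and 0.05 in Sham and 0.25, 0.05, −0.03 and 0.13 in TAC. Tomm20 to Tomm22 was −0.14, 0.10 and 0.04 in Sham and −0.21, −0.05, 0.10 and 0.07 in TAC. A ratio shows unequal change of its members and not which of them changed, and the Timm50 ratios rest on the brighter of 2 probes.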
